A study of Mus musculus with 2 samples.

Results

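Nnat and Blcap form an imprinted pair on distal Chr 2 of the mouse, and the values of both genes and of 6 genes around them were compared between 2 newborn heads. The 8 genes, Manbal, Src, Blcap, Nnat, Ctnnbl1, Vstm2l, Rprd1b and Tgm2 in their order along the chromosome, were chosen by name. Together they had 17 probe sets with a single gene symbol among the 45101 probe sets of each array, and they are 8 of 18193 genes that could be named. Both heads came from offspring of mice carrying T(2:9)11H, a reciprocal translocation between Chr 2 and Chr 9, and each was measured on 1 Affymetrix array. In the first, MatDp(dist2), the 2 copies of distal Chr 2, beyond the translocation breakpoint, came from the mother and those of distal Chr 9 from the father. It is called the maternal-duplication head below. In the second, PatDp(dist2) or the paternal-duplication head, distal Chr 2 was paternal and distal Chr 9 maternal. Neither group is a normal control. For a gene of distal Chr 2, a ratio compares 2 maternal copies with 2 paternal copies, and for distal Chr 9 the reverse. Such a ratio gives no level for a head with 1 copy from each parent. Genes elsewhere lie outside the duplicated parts. Sex, and how many animals gave RNA to each array, are not stated by the labels.

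Imprinted genes are transcribed mainly from the copy of 1 parent, and the copies are told apart by DNA methylation set down in the egg or the sperm. Nnat, neuronatin, encodes a small membrane protein of the endoplasmic reticulum that is abundant in the developing brain and in some endocrine and fat cells, and it is expressed from the paternal copy. It lies inside the gene Blcap on the opposite strand. Blcap encodes a small conserved protein whose transcript is a known target of RNA editing, and in mouse brain some of its transcripts come mainly from the maternal copy.

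The stretches before the start sites of this pair are shown because the parental mark of Nnat lies at CG dinucleotides around its start. Capitals mark each CG, the site at which mouse DNA is methylated. Both stretches are 250 bases long, read from 5′ to 3′ towards the gene, and come from RefSeq in the build GRCm38.p6. The stretch of Nnat lies at chr2:157559828-157560077 on the plus strand, and that of Blcap at chr2:157566362-157566611 on the minus strand.
Nnat: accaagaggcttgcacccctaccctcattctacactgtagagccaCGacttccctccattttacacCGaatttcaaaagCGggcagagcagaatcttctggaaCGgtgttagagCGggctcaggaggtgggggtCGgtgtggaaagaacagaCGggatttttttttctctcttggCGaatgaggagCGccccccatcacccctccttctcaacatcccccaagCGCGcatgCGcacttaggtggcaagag
Blcap: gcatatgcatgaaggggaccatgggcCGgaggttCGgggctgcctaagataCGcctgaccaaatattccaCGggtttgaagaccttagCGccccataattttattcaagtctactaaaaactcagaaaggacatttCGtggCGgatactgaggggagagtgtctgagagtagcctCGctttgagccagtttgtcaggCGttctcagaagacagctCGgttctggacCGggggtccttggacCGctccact
Each of these stretches held 12 CG dinucleotides, a number reached by 33.5% of the 32851 promoters in the table, whose median was 6. The stretch of Nnat was 54.8% G or C and that of Blcap 52.8%. Of the 8 genes 6 had an entry, and their CG counts were 9 for Manbal, 40 for Src, 18 for Ctnnbl1 and 21 for Rprd1b besides the pair. The letters GCGCATG, part of the palindrome bound by the factor NRF1, were searched on both strands. They occurred before Nnat as overlapping matches on each strand, the first of them 26 bases before the start, and in none of the other 5 stretches, while 3.24% of all promoters held them. The GC box GGGCGG, on either strand, was found once before Src and 2 times before Ctnnbl1 and in 32.7% of all promoters, and TATAAA, on either strand, in none of the 6 and in 12.4% of all. These motifs were chosen after the sequences had been seen, the matches describe letters only, and methylation was not measured on these arrays.

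The values are MAS5 signals, which summarise the probes of a probe set on a linear scale. Signals went from 0.1 to 22236 in the maternal-duplication head and to 22895 in the paternal-duplication head. A floor at a signal of 187, the middle of the signals on these arrays, stood in for detection calls. Where 1 array lay under it, a bound is given, the brighter signal divided by the floor, and where both did, there is no fold. A gene is called here when its ratio or bound reached 2-fold. With 1 array for each genotype there is no spread between animals, so no difference could be tested and no p-value is given. Among the marker lists, all 19 neuron genes and all 11 skeletal muscle genes on the arrays were at or above the floor in both heads, but all 6 lens markers were under it in the paternal-duplication head. The summed signal of the lens markers was 30726 in the maternal-duplication head and 222 in the paternal-duplication head. The heads also differed in epidermal markers, of which 6 of 8 were at least 2-fold higher in the maternal-duplication head, and in fat markers, of which 6 of 7 were at least 2-fold higher in the paternal-duplication head. In such bulk tissue, fewer cells of a type and less RNA per cell cannot be told apart.

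Nnat had a signal of 43.1 in the maternal-duplication head and of 3927 in the paternal-duplication head on its only probe set, 1423506_a_at. It was bright with 2 paternal copies and under the floor with 2 maternal copies, which makes it at least 21.0-fold higher in the paternal-duplication head. Its ratio, as a bound, ranked 1st from the lowest of the 12483 genes with a value. Blcap went the opposite way, with a signal of 2397 in the maternal-duplication head and of 993 in the paternal-duplication head on its only probe set, 1420631_a_at. It was measured well above the floor in both heads and was 2.41-fold higher with 2 maternal copies, a log2 ratio of 1.27, at rank 301 from the highest ratio. So the pair had its brighter signals in different heads, and Blcap, unlike Nnat, kept a signal above the floor in the head where it was the dimmer. Which Blcap or Nnat transcripts these probe sets read was not analysed here.

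**Figure D1:**
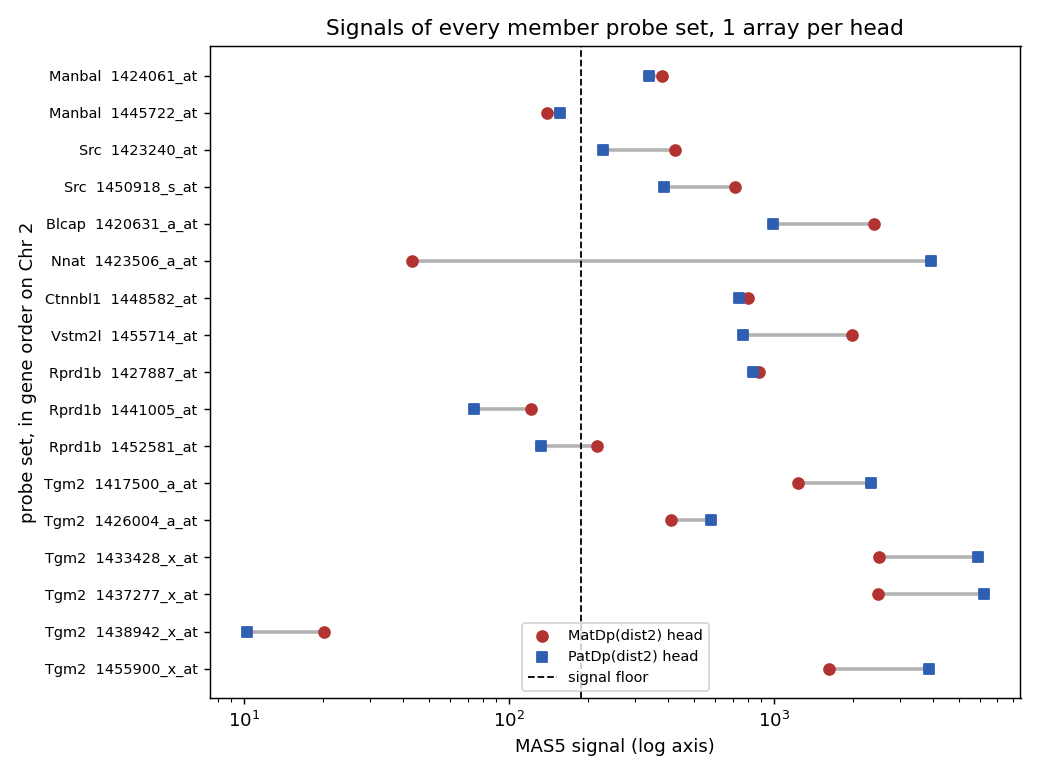
MAS5 signal on a log axis of all 17 probe sets of the 8 genes, in gene order from top to bottom, with a circle for the maternal-duplication head, MatDp(dist2), a square for the paternal-duplication head, PatDp(dist2), and a dashed line at the floor of 187. The pair of points for Nnat, at 43.1 and 3927, is the farthest apart, and Blcap, Vstm2l and Src lie to the right in the maternal-duplication head, while 5 of the 6 Tgm2 probe sets lie to the right in the paternal-duplication head.

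Neuron markers moved in the same direction as Blcap. All 19 were measured, 15 had the higher signal in the maternal-duplication head, and 10 were higher by 2-fold or more there against 0 in the other, with a median of 2.02-fold and summed signals of 56772.5 and 31052. The largest ratio was that of the neuronal tubulin Tubb3, with signals of 2853 and 775, and the smallest that of the kinase gene Camk2a, with 268 and 451.5. The ratio of Blcap, 2.41-fold, lay inside the range of these markers, whose log2 ratios went from -0.75 to 1.88, and the part of the neuron markers in the Blcap result was not tested. Nnat, a gene of neurons itself, had the higher signal in the paternal-duplication head, as did 4 of the neuron markers. The part of the neuron markers in the Nnat result was not tested. Fat markers moved in the direction of Nnat, all 7 of 7, with a median of 4.12-fold and a range of log2 ratios from -2.73 to -0.92, and summed signals of 24259.0 and 66112. The part of the fat markers in the Nnat result was not tested. The largest difference among the fat markers was that of Plin4, a lipid droplet protein, with signals of 453 in the maternal-duplication head and 3007 in the paternal-duplication head.

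Of the 6 genes that flank the pair, 2 were at least 2-fold apart, Vstm2l and Tgm2, and they differed in opposite directions. Counted with the pair, 4 of the 8 genes were called, 2 in each direction. Among all 12483 genes with a value, 7.9% were called, 4.43% as higher in the maternal-duplication head and 3.47% as higher in the paternal-duplication head. By probe set, 14 of the 17 had a value. Of these, 6 were at least 2-fold apart, 2 higher in the maternal-duplication head and 4 in the other. The 4 were the Nnat probe set and repeated readings of the single gene Tgm2, so they are not separate genes. Among the 20764 probe sets with 1 symbol and a value, 7.17% were called, 4.22% and 2.95% by direction. Because these genes were chosen with results of these arrays known, the count describes them and supports nothing further.

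On the proximal side of the pair, Src is the nearest gene and Manbal the next. Src, the founding member of a family of tyrosine kinases that act in adhesion and growth signalling, read 714 in the maternal-duplication head and 386 in the paternal-duplication head on 1450918_s_at. Its other probe set, 1423240_at, had 424 and 227. Both were higher in the maternal-duplication head and close to each other in size, 1.85-fold and 1.87-fold, which is under the 2-fold threshold. Neuron markers had the same direction, and their part in the Src values was not tested. Manbal, a gene for a small predicted membrane protein, had signals of 378.5 and 339.9 on 1424061_at, a ratio of 1.11-fold, and both heads lay under the floor on 1445722_at, with 140.1 and 156. The direction of Manbal is not settled, as quantile normalization placed it at 0.999-fold.

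On the distal side, Ctnnbl1 follows Nnat directly and barely differed. Ctnnbl1, an armadillo-repeat protein bound to the spliceosome, had signals of 800.0 in the maternal-duplication head and 741 in the paternal-duplication head, a ratio of 1.08-fold. The gene after it, Vstm2l, which encodes a secreted immunoglobulin-domain protein expressed in brain, had signals of 1979 and 767. It was 2.58-fold higher in the maternal-duplication head, a log2 ratio of 1.37 and rank 247 from the highest. This was a higher ratio than that of Blcap, and it also lay inside the range of the neuron markers, whose part in it was not tested.

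Rprd1b encodes a protein that binds the tail of RNA polymerase II. Its brightest probe set, 1427887_at, read 885 in the maternal-duplication head and 835 in the paternal-duplication head, a ratio of 1.06-fold. On 1452581_at the signals were 215 and 132, at least 1.15-fold higher in the maternal-duplication head, and on 1441005_at both were under the floor, at 121 and 74.1. Neither probe set with a value reached 2-fold.

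Tgm2, the most distal of the 8 genes, encodes tissue transglutaminase, an enzyme that cross-links proteins in many cell types. The brightest of its probe sets, 1437277_x_at, read 2485 in the maternal-duplication head and 6207 in the paternal-duplication head, 2.50-fold higher in the latter. Sets 1433428_x_at, with 2493 and 5933, and 1455900_x_at, with 1619 and 3845, each gave 2.38-fold. The sets 1417500_a_at, with 1241 and 2334, and 1426004_a_at, with 411 and 583, gave 1.88-fold and 1.42-fold. All 5 had the higher signal in the paternal-duplication head, but the 3 past 2-fold were those with the suffix _x_at, which in Affymetrix naming marks probes that may also bind other transcripts. The sixth, 1438942_x_at, lay far under the floor in both heads, at 20.2 and 10.3. Averaged on the log2 scale over the 5 probe sets with a value, Tgm2 was 2.07-fold higher in the paternal-duplication head. Fat and muscle markers had the direction of Tgm2, with medians of 4.12-fold and 1.49-fold, and their part in it was not tested.

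**Figure D2:**
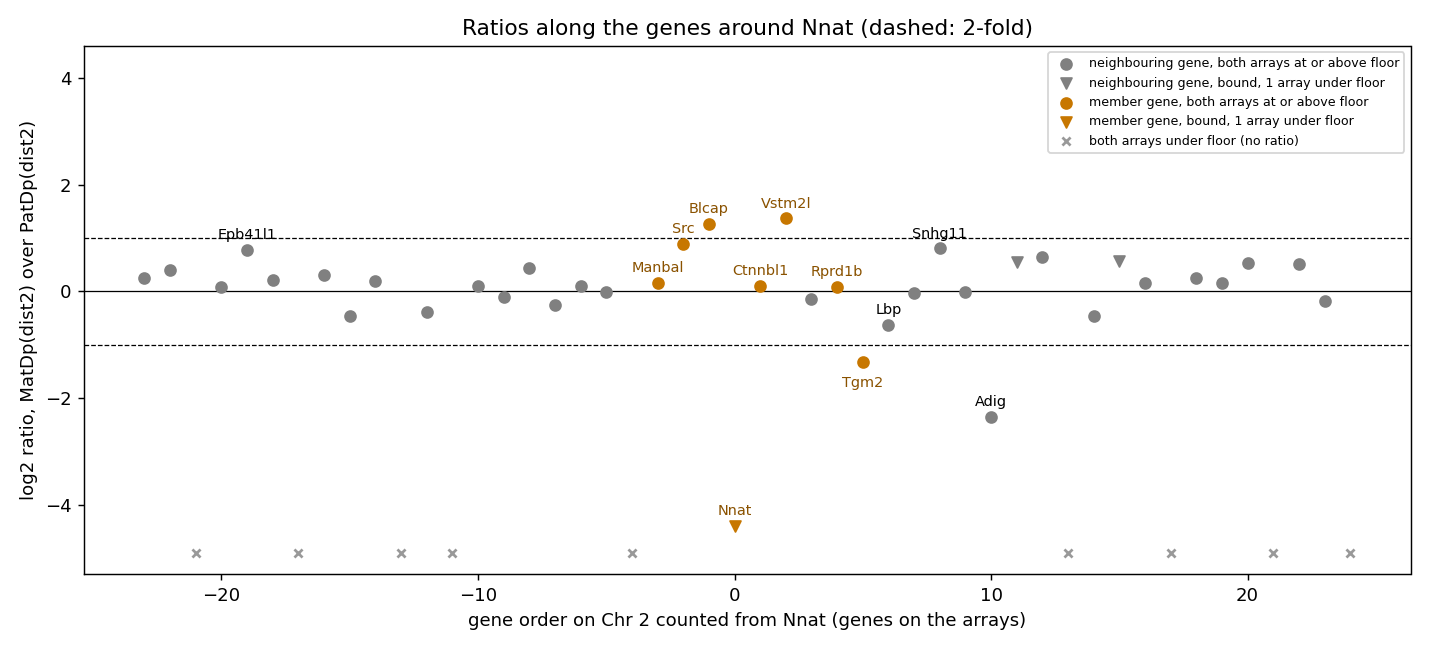
Log2 ratio of the MatDp(dist2) over the PatDp(dist2) signal against gene order on Chr 2, counted from Nnat at 0 over the genes on the arrays, with the 8 genes in orange, 40 neighbouring genes in grey, triangles for bounds, crosses for genes under the floor in both heads and dashed lines at 2-fold. Nnat, at -4.39, and Adig, at -2.35, are the lowest points, and Ctnnbl1, at 0.11, lies between Nnat and Vstm2l.

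The other genes of the stretch mostly differed by less than 2-fold. The 8 genes, of which 4 were called, are left out of the counts below, so these counts do not describe the whole stretch. Of the 20 nearest other genes on each side that are on the arrays, 31 of 40 had a value, and 1 of them, or 3.23%, was at least 2-fold apart, against 7.9% of all genes. The median log2 ratio was 0.16, against 0.02 over all genes. On the proximal side, from Phf20 to Ghrh, 0 of 15 genes with a value were at least 2-fold apart. On the distal side it was 1 of 16. That gene was Adig, which encodes adipogenin, a small protein of fat cells. Its signals were 218 in the maternal-duplication head and 1110.5 in the paternal-duplication head, 5.10-fold higher in the latter. The fold of Adig lay within the range of the fat markers, whose log2 ratios went from -2.73 to -0.92, and their part in it was not tested.

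Of the 31 neighbours 24 were measured in both heads within 1.5-fold, and 2, Gm14204 and Fam83d, had bounds under it of at least 1.46-fold and at least 1.48-fold. The other 5, picked out after their values were seen, included Adig and Lbp, the gene of a plasma protein that binds lipopolysaccharide, with 419 and 644. The remaining 3 were brighter with the maternal duplication. Snhg11, a noncoding host gene of small nucleolar RNAs, had the highest ratio of the neighbours, with signals of 1322 and 757, or 1.75-fold. Epb41l1, which encodes a membrane skeleton protein of neurons, had 1404 and 816, and Slc32a1, the vesicular transporter of GABA, had 359.7 and 231. These 3 went the way of the neuron markers, whose part was not tested. Tti1, which lies between Vstm2l and Rprd1b, had 536 and 588.5, and Lbp is the neighbour next to Tgm2 on the distal side. At the 2-fold threshold, genes that were not called lay on both sides of each called gene other than Nnat and Blcap themselves. Lbp was 1.54-fold higher in the paternal-duplication head, the direction of Tgm2. With 7.9% of all genes called, most genes have uncalled genes beside them.

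Other genes that sit with a host gene in an imprinted pair were compared with this one. Of 8 such genes listed 7 were on the arrays, and 2 were called, against 7.9% of all genes. The called genes were the retrogene Mcts2 and its host H13, which also lie on distal Chr 2. This list was chosen with earlier results of these data known, so the count supports nothing further. Mcts2 was at least 3.85-fold higher in the paternal-duplication head, with signals of 90.4 and 720.4, and H13 was 4.74-fold higher in the maternal-duplication head on its brightest probe set, with 1172 and 247. On these probe sets the pair had the directions of Nnat and Blcap, and 1438456_at and 1438865_at, with 688 and 179 and with 299 and 42.1, shared the direction of the brightest H13 probe set. Another H13 probe set, 1455631_at, was brighter in the paternal-duplication head, with 96.1 and 401, by at least 2.14-fold. The listed genes outside Chr 2 and Chr 9, and so outside the duplicated parts, Commd1, Nap1l5, Herc3, Trappc9 and Inpp5f were all within 2-fold, with the lowest ratio for Commd1, 879 and 1161, and the highest for Inpp5f, 3469 and 2372.

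Genes that work with the proteins of this stretch mostly differed by less than 2-fold, as did most genes with a value, of which 7.9% were called. Neuronatin resembles the small regulators of the SERCA pumps, which return calcium to the endoplasmic reticulum. Of 16 measured genes of these pumps, their regulators and calcium handling, 3 were at least 2-fold higher in the paternal-duplication head and 0 in the maternal-duplication head, with a median log2 ratio of -0.47 against 0.02 over all genes. The 3 were the calcium release channel Ryr1 (signals 2059 and 4967), the calcium store protein Casq1 (3675 and 8043) and the receptor Itpr2 (210.4 and 457), and the highest ratio was that of Ryr2 (223 and 192). Pln, phospholamban, was under the floor in both heads, with 98.2 and 129, and Sln, sarcolipin, had 8772 and 13906. Skeletal muscle markers moved with this list: all 11 had the higher signal in the paternal-duplication head and 4 were at least 2-fold higher, with summed signals of 98826 and 138674, and their part was not tested.

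For Blcap, whose transcript is edited, genes of adenosine deaminases were listed, and which of them act on that transcript was not examined. Adar, Adarb1, Adarb2 and Adat1 had the higher signal in the maternal-duplication head, and 0 of these 4 were called. Adar had signals of 1665 and 1279.6, while Adarb1 (192 and 79.7), Adarb2 (313 and 111) and Adat1 (192 and 74.2) were under the floor in the paternal-duplication head. Their bounds, at least 1.03-fold for Adarb1 and Adat1 and at least 1.67-fold for Adarb2, do not settle whether they reached 2-fold. The brighter signals of Adarb1 and Adat1 were themselves close to the floor of 187. The relatives of Vstm2l, Vstm2a (579 and 318), Vstm2b (454 and 286) and Vstm5 (333 and 231), were higher in the maternal-duplication head by less than 2-fold, and Vstm4 had 842 and 902. For Ctnnbl1, 0 of 7 genes of the Prp19 complex and its partners were called, from Xab2 (632 and 807) to Cdc5l (2637 and 2225). For Rprd1b, 0 of 6 genes were called, from Rpap2 (573 and 751) to Rprd2 (703 and 520.0). With 7.9% of all genes called, lists this short often hold 0 called genes, so these counts show nothing particular to them.

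Among the other transglutaminases 2 of the 8 on the arrays had a value. Tgm3, an enzyme of the epidermis and hair also on Chr 2, was 3.19-fold higher in the maternal-duplication head, with signals of 656 and 205.5, opposite to Tgm2. The epidermal markers moved with Tgm3, with 6 of 8 at least 2-fold higher in the maternal-duplication head and summed signals of 49448 and 6757, and their part was not tested. F13a1, the clotting transglutaminase of macrophages, had 2093.5 and 3329.6. Of 12 genes of the Src family, its regulators and substrates, 8 had a value and 0 were called, against 7.9% of all genes. Their ratios went from Pxn, the adhesion protein paxillin (2142 and 3610.0), to Pag1, an adaptor that binds the Src inhibitor Csk (1092 and 743), with 4 higher in each head and a median log2 ratio of 0.01.

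**Figure D3:**
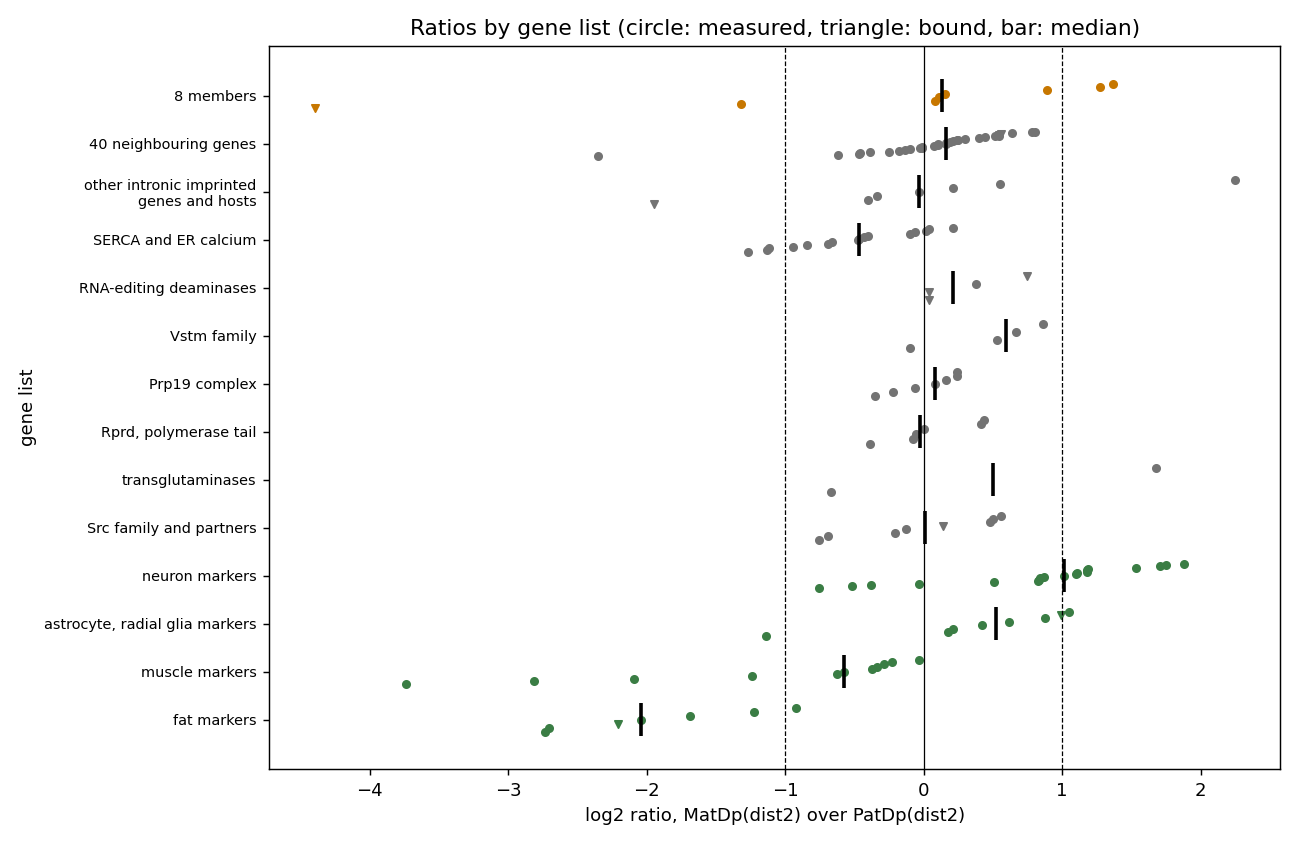
Log2 ratio of the MatDp(dist2) over the PatDp(dist2) signal for every gene with a value in each list, with circles for genes at or above the floor in both heads, triangles for bounds, black bars for medians and dashed lines at 2-fold. The 8 genes spread from -4.39 to 1.37 around a median of 0.13, while the neuron markers have a median of 1.01 and the fat markers one of -2.04.

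The genes nearest to Nnat and Blcap in the plane of the log2 signals on the 2 arrays, with signals under the floor set to it, were listed as the genes of most similar pattern. For Nnat these were Mb, the myoglobin of muscle, with signals of 224 and 2983, and then Dmbt1, Myh2, Plin4 and Mrap. Since Nnat itself lay under the floor in the maternal-duplication head, this choice follows the floor, and no distance is given. For Blcap, above the floor in both heads, they were Lmnb1, Cplx2, Bex4, Cdk5r1 and Pcdh8 at distances of 0.10 to 0.14. Cplx2, a complexin of synapses, had signals of 2566 and 975, and Lmnb1, a lamin of the nuclear envelope, had 2315 and 1055. These likenesses rest on 2 arrays. None of these genes lies on Chr 2.

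The ratios of the 8 genes were recomputed with the arrays scaled in 3 other ways, with other floors, with an offset of 100 added to the signals and with averaged probe sets, with and without those under the floor in both heads. Blcap went from 2.29-fold to 2.48-fold and Vstm2l from 2.40-fold to 2.61-fold higher with the maternal duplication. The bound of Nnat was 8.45-fold or more in each, in favour of the paternal duplication. Src was at most 1.86-fold higher with the maternal duplication, and with the floor at its highest it had a bound of at least 1.54-fold. Ctnnbl1 went from 1.03-fold to 1.08-fold. Rprd1b went from 1.03-fold to 1.41-fold, the highest with the mean over all its probe sets.

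**Figure D4:**
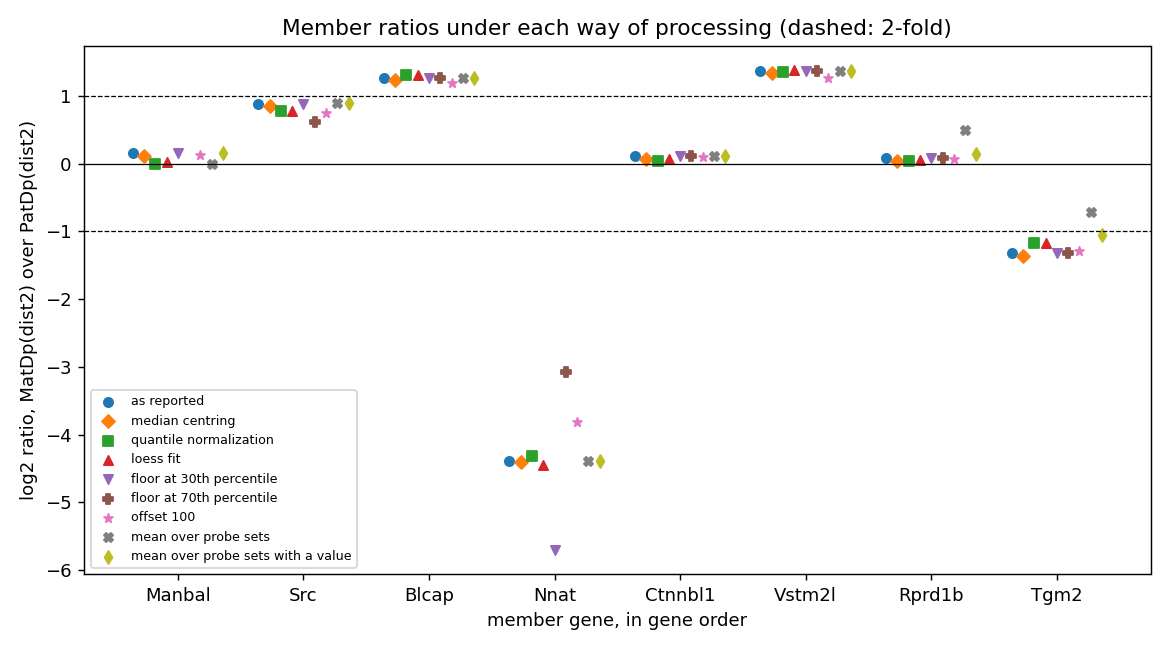
Log2 ratio of the MatDp(dist2) over the PatDp(dist2) signal of the 8 genes under the reported processing and 8 other ways of scaling, flooring or summarising the signals, with dashed lines at 2-fold. Nnat stays below -3 and Blcap and Vstm2l above 1 in each, Src stays between 0 and 1, and Tgm2 is below -1 in each except the mean over all its probe sets, which takes in the set under the floor in both heads.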

How the data were processed

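The authors deposited a linear intensity, the MAS5 signal, of 45101 probe sets on each of 2 arrays. MAS5 and GCOS are named in the submitters' processing notes, without versions. Trimmed of 2% of probe sets at either end, both arrays averaged 500.002, so each had been scaled to the same trimmed mean. Names came from the platform annotation, brought up to date through RefSeq gene IDs (GRCm38.p6): 34945 had 1 symbol, 34741 of them matched by ID, 932 had several (0 with one of the 8 genes) and 64 were controls. RefSeq coordinates served for gene order and for the promoters shown only, since the signals name no build. Each gene was represented by its brightest probe set by mean log2 signal, and all probe sets of the 8 genes are given. As floor served the 50th percentile of signals (median of the 2 arrays). Ratios were computed in Python 3.11.15 with pandas 2.3.3, with no test, since each group has 1 array. The number of arrays limits the precision. The script was tested on simulated data. The 8 genes, the lists and the rule for named genes were chosen with earlier results of these data known. Named were all 8 genes, the genes of each functional list and of the neighbours that were called, those with the lowest and highest measured ratio, and the 5 genes nearest to Nnat and to Blcap. Other genes of short lists are named for completeness. Median centring, quantile normalization, a loess fit, other floors, an offset, other thresholds and the mean over probe sets were tried as alternatives.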

Additional observations from a re-analysis of the deposited data

How the results depend on the processing

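Nnat, Blcap and Vstm2l kept their direction and stayed past 2-fold under the 3 other scalings, other floors (30th and 70th percentile), an added offset of 100 and averaging of probe sets, with Blcap from 2.29-fold to 2.48-fold. The bound of Nnat follows the floor by construction, and was at least 52.3-fold with the 30th percentile as floor and at least 8.45-fold with the 70th, where Manbal had no value. Tgm2 was at 1.64-fold with the mean over all its probe sets, which takes in the set under the floor in both heads, and at 2.07-fold with the mean over the 5 sets with a value, an alternative chosen after seeing the data that changed no call of the 8 genes. The count of 6 probe sets of the 8 genes at least 2-fold apart was 1, Nnat, at a 3-fold threshold. The count of neighbouring genes, 1 as reported, was 5 at a 1.5-fold threshold and 2 with the mean over probe sets, where Norad was added at 2.73-fold (it was not with the mean over sets with a value), and the neuron markers past the threshold went from 10 to 3 at 3-fold. Over all genes, 986 were called, 581 with the floor at the 70th percentile, 2849 at a 1.5-fold and 246 at a 3-fold threshold. Median centring moved log2 ratios by 0.04. Signals near or under the floor limit the folds of Nnat, Manbal and Rprd1b. No paired analysis was possible because each group has 1 array.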

Other observations

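Ghrh, the gene of growth hormone-releasing hormone, is the neighbour that precedes Manbal in gene order and was dimmer than the floor in either head, at 21.3 in the maternal-duplication head and 71.0 in the paternal-duplication head. Gh, growth hormone itself, was 4.14-fold higher in the maternal-duplication head, with signals of 2146 and 519. Of the 6 pituitary markers on the arrays 3 had a value, and of these Chga, a granin of endocrine cells, had 548 and 364, while Pomc, the precursor of corticotropin, had 368 and 683. Gh was the pituitary marker past 2-fold.

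Of the astrocyte and radial glia markers 8 had a value, with 1 called in each direction and 6 not called, against 7.9% of all genes called. Of the 8, 7 had the higher signal in the maternal-duplication head, where the stem cell factor Sox2 had signals of 1865 and 899, or 2.08-fold. Aqp4, the water channel of astrocytes and of other tissues, was the exception, with 737.5 in the maternal-duplication head and 1621 in the paternal-duplication head, or 2.20-fold higher in the latter.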
